A study of Mus musculus with 2 samples.

Results

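The 10 genes described here, Bri3, Camk1d, Cdk8, Peak1, Scand1, Tmem238, Tmem160, Taf10, Rab5if and Glrx5, were chosen by their RNA ratio between the Srsf10 knockdown and the control library, which was low in tumour cells and in several immune cell classes of the same mouse liver tumours. They are 10 of the 32285 features counted in each library. Their ratios in these classes are what chose them and are given as a description with no test. How alike the ratios are between classes was not the rule, but it depends on a choice for low ratios in several classes. Ratios in cells of like depth and mitochondrial share come from part of the same barcodes, so they are no independent check. What was not used to choose the genes is how they vary inside 1 library and what their sequences share.

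The study compared tumour tissue of mice with hepatocellular carcinoma, in 1 library from a control shRNA group, named shCtrl with the genotype given as WT, and 1 library from a group with a short hairpin RNA against the splicing factor Srsf10, named shSrsf10. The labels give neither the age, sex, strain and number of the mice nor the cell type in which the hairpin is active, and the number of tumours pooled in a library is not given. They also describe the preparation in conflicting ways, as a 10x 5' kit after a cell sort in the study design and as a 10x 3' kit after a slow spin of a liver suspension in the sample protocol. With 1 library in each group there is no replicate check and no test between groups, so each interval below is a 95% interval of counting error only, and the knockdown cannot be told apart from any other difference between the libraries.

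Barcodes were put in 5 classes by counts of defining genes, leaving out barcodes that met more than 1 rule. Tumour barcodes had at least 5 UMIs (unique molecular identifiers, 1 per captured RNA molecule) of the keratins Krt8 and Krt18 and none of the leukocyte gene Ptprc, T cell barcodes at least 2 of Cd3d, Cd3e and Cd3g, macrophage barcodes at least 3 of C1qa, C1qb and C1qc, B cell barcodes at least 2 of Cd79a and Cd79b, and neutrophil barcodes at least 1% of UMIs from S100a8 and S100a9. The shCtrl library held 6840 tumour, 349 T, 148 neutrophil, 405 macrophage and 78 B cell barcodes. The shSrsf10 library held 3830, 1975, 290, 130 and 75. Since the tumour rule asks for no Ptprc UMI, an immune barcode with such a UMI could hold tumour keratins and stay in its class. At least 5 keratin UMIs were held by 25 shCtrl and 128 shSrsf10 T cell barcodes and by 9 and 6 macrophage barcodes. Neutrophils had 1 and 2 such barcodes, and B cells 1 and 1. None of the 6 to 8 defining markers of a class was at 0 in that class. Median depth in tumour barcodes was 17334.5 UMIs in shCtrl and 26392 in shSrsf10, and in B cell barcodes it was 793.5 and 3005. The median mitochondrial share of UMIs in tumour barcodes was 0.265% and 0.125%. The libraries shared 67 barcode sequences. Levels are given as CPM, UMIs per 1000000 UMIs of the class, and a pair of gene and class counts as measured where both libraries together held at least 20 UMIs.

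The knockdown target itself had a ratio closer to 0 in T cells and macrophages than in tumour cells. Srsf10 RNA was 45.6 CPM in shCtrl and 19.7 CPM in shSrsf10 tumour cells, a log2 ratio of -1.21 (-1.28 to -1.14). In T cells it was 67.1 and 45.3 CPM, a log2 ratio of -0.57 (-0.88 to -0.25). In macrophages it was 37.7 and 35.2 CPM, a log2 ratio of -0.10 (-0.92 to 0.68). In B cells it was 118 and 40.6 CPM, a log2 ratio of -1.54 (-2.74 to -0.34), and in neutrophils it had 5 and 8 UMIs and was not measured. The interval of the target thus lay below 0 in tumour, T and B cells and held 0 in macrophages.

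The 10 genes belong to different processes. Taf10, Cdk8 and Scand1 act in transcription, where general factors such as TFIID and the Mediator complex bring RNA polymerase to promoters. Camk1d and Peak1 act in signalling, Glrx5 and Tmem160 in mitochondria, and Bri3, Rab5if and Tmem238 encode membrane proteins. Srsf10 is a serine and arginine rich protein that regulates the choice of exons, which gene counts do not show.

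The start of the coding sequence is printed for 7 of the genes because most members have a GC-rich one and Peak1 does not. These are the first 90 coding bases in GENCODE vM21 (GRCm38) of the transcript used for each gene, 5′ to 3′, with each CG dinucleotide in capitals. Tmem238, Glrx5, Taf10, Scand1 and Tmem160 have the GC-richest starts of the 10. Bri3 is printed as the member with the lowest measured ratio in B cells, and Peak1 is printed as the contrast.
Tmem238: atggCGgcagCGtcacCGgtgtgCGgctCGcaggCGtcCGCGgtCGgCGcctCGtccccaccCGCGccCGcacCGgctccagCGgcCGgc
Glrx5: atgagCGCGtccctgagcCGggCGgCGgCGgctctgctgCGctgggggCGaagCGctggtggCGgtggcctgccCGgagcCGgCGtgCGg
Taf10: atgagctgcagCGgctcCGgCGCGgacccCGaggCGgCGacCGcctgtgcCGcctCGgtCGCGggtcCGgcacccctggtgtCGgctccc
Scand1: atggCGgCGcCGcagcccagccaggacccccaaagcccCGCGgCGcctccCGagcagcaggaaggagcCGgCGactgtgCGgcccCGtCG
Tmem160: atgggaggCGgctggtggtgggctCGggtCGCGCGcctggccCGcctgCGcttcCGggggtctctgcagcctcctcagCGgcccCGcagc
Bri3: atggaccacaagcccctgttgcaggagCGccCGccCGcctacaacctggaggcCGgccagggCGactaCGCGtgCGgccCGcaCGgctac
Peak1: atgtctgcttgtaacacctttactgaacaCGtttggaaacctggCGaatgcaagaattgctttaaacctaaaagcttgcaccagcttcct
The Tmem238 start is 81.1% G and C with 17 CG dinucleotides. Glrx5 is at 80.0% with 14, Taf10 at 78.9% with 14, and Scand1 at 77.8% with 12. Peak1 is at 42.2% with 2.

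All 43 measured pairs of gene and class were at least 2-fold lower in shSrsf10, and the counting interval of each lay below 0. The label holds in full for 6 genes, Bri3, Camk1d, Cdk8, Peak1, Scand1 and Rab5if, which were measured in all 5 classes. The other 4 were too sparse in neutrophils, B cells or both, in 7 pairs in all. The immune sums of all 10 genes also hold tumour RNA, described below. In tumour cells all 10 were at least 1.5-fold lower, where 13.3% of all measured genes were. In T cells all 10 were, against 21.8% of genes, and in macrophages all 10, against 24.5%. In neutrophils 6 of 6 measured members were, against 19.2%, and in B cells 7 of 7, against 33.9%. Genes at least 1.5-fold higher made up 8.79% in tumour cells, 12.5% in T cells, 28.5% in neutrophils, 9.8% in macrophages and 19.3% in B cells, and no member was among them. These shares give the background of a contrast that was used to choose the genes, and nothing is read from the difference. The median log2 ratio of the members was -1.59 in tumour cells, -1.78 in T cells, -1.63 in neutrophils, -1.69 in macrophages and -1.91 in B cells. The median over all measured genes was -0.07, -0.10, 0.15, -0.11 and -0.26 in the same order.

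**Figure D1:**
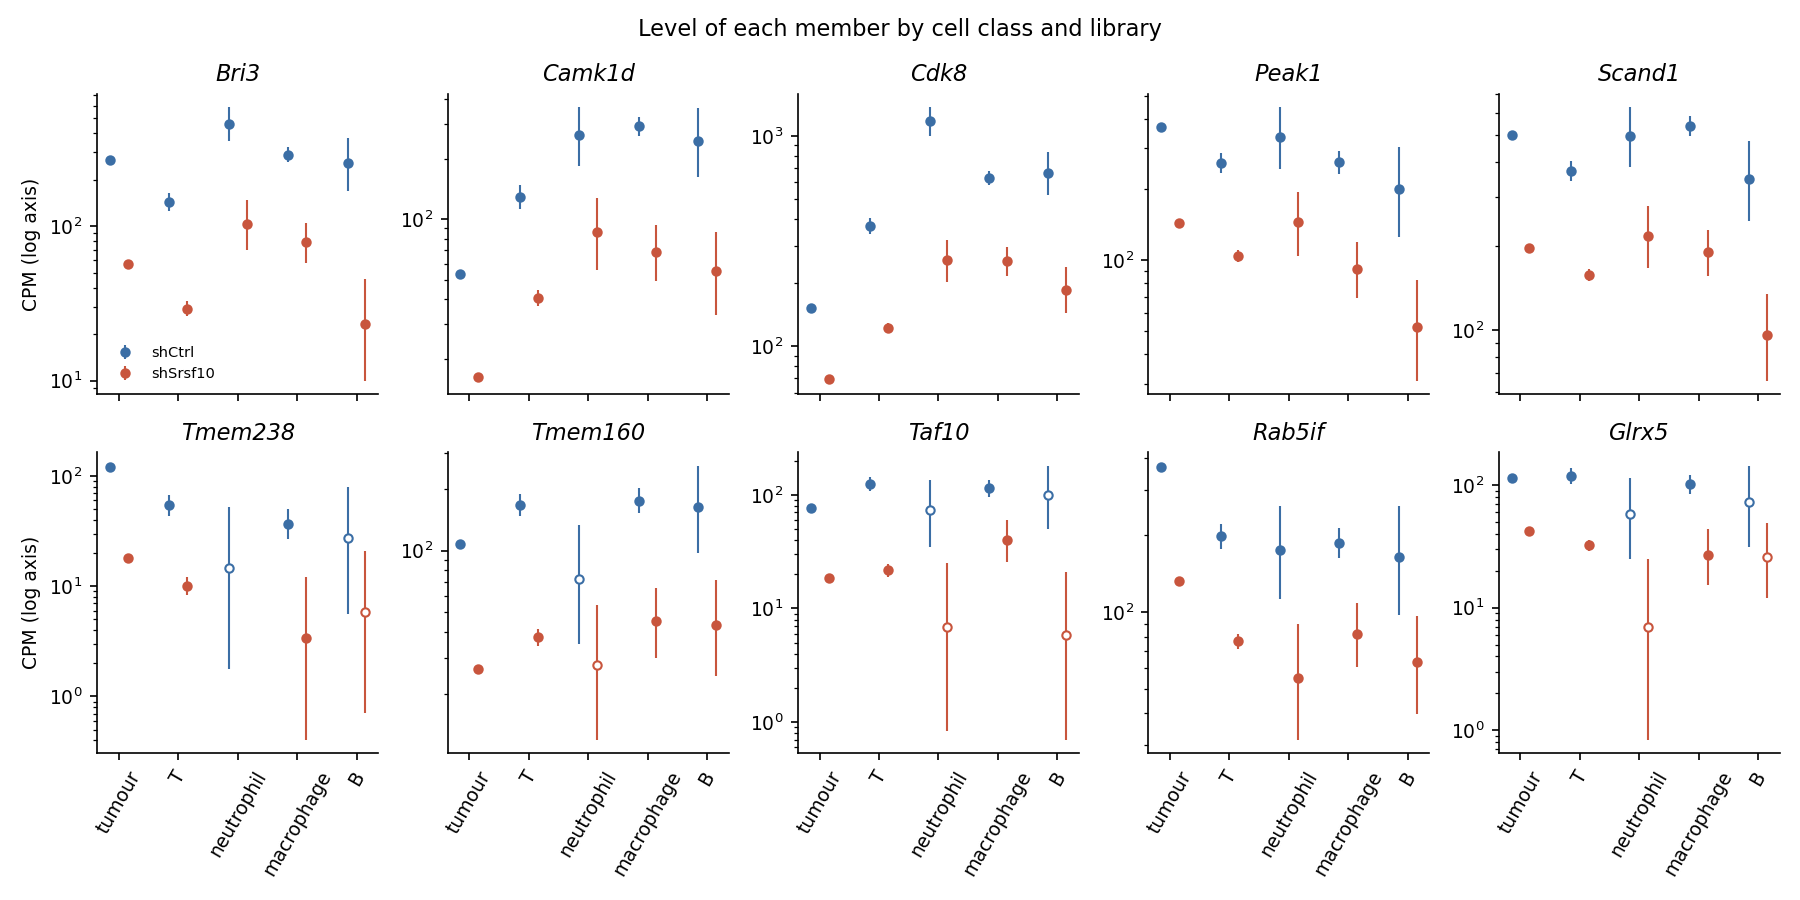
Level of each of the 10 genes in CPM (log axis, a different range in each panel) in 5 cell classes, with shCtrl in blue and shSrsf10 in red; bars are exact 95% Poisson intervals, open points mark pairs with under 20 UMIs, and a level of 0 is not drawn. In each of the 43 measured pairs the shSrsf10 point is the lower one, while the order of the classes differs from gene to gene.

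Among the transcription genes, Taf10 had the ratio farthest from 0 in T cells. Taf10 (ENSMUSG00000043866, chromosome 7, 105739393 to 105744361, minus strand) encodes a subunit shared by TFIID and the coactivator SAGA. Its level was 76.2 CPM in shCtrl and 18.5 in shSrsf10 tumour cells, 125 and 21.8 in T cells, and 114 and 40.2 in macrophages. Those are log2 ratios of -2.05 (-2.11 to -1.98), -2.51 (-2.80 to -2.23) and -1.50 (-2.19 to -0.87). The T cell interval lies below the tumour value and the macrophage interval holds it. With each barcode thinned to 1000 UMIs the macrophage ratio was -2.85. Neutrophils held 10 and 2 Taf10 UMIs and B cells 11 and 2, under the minimum in both classes.

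Cdk8 is the gene whose ratio stood apart from the tumour value in the most classes, 3 of 4. Cdk8 (ENSMUSG00000029635, chromosome 5, 146231230 to 146302874, plus strand) encodes the kinase of the Mediator kinase module. It was at 151 CPM in shCtrl and 69.8 in shSrsf10 tumour cells, 372 and 122 in T cells, and 1173 and 256 in neutrophils. In macrophages the levels were 630 and 253 CPM, and in B cells 664 and 185. Pooled over all depths, tumour cells thus held the lowest level in both libraries, and neutrophils the highest, 7.77 times the tumour level in shCtrl. The classes differ in depth, with a median of 17334.5 UMIs in shCtrl tumour barcodes and 691.5 in shCtrl neutrophil barcodes. Tumour barcodes of 500 to 2000 UMIs held 969 Cdk8 CPM in shCtrl and 552 in shSrsf10, so this order of classes is not one at like depth. The log2 ratio was -1.11 (-1.15 to -1.07) in tumour cells, -1.61 (-1.75 to -1.47) in T cells, -2.20 (-2.62 to -1.79) in neutrophils and -1.84 (-2.35 to -1.34) in B cells. All of the last 3 intervals lie below the tumour ratio. In macrophages the ratio was -1.31 (-1.58 to -1.06), an interval that holds it.

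Scand1 had no class whose ratio stood apart from the tumour value beyond counting error. Scand1 (ENSMUSG00000046229, chromosome 2, 156311847 to 156312704, minus strand) is a short gene that encodes a SCAN domain protein without the zinc fingers found in most of its relatives. Its level was 499.8 CPM in shCtrl and 197 in shSrsf10 tumour cells, 371 and 157 in T cells, and 495 and 218 in neutrophils. Macrophages had 538 and 189 CPM and B cells 346 and 95.6. The log2 ratios ran from -1.19 (-1.70 to -0.67) in neutrophils to -1.86 (-2.57 to -1.14) in B cells, with -1.35 (-1.37 to -1.32) in tumour cells. Each of the 4 immune intervals holds the tumour ratio.

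The signalling genes Camk1d and Peak1 also kept ratios that counting error does not separate between classes. Camk1d (ENSMUSG00000039145, chromosome 2, 5293457 to 5714515, minus strand) encodes a calcium and calmodulin dependent kinase. Its tumour level was 53.2 CPM in shCtrl and 16.4 in shSrsf10, and its macrophage level 292 and 68.8. The T cell levels were 130 and 40.5 CPM, the neutrophil levels 262 and 86.4, and the B cell levels 246 and 55.0. As for Cdk8, tumour cells pooled over all depths held the least in both libraries. Tumour barcodes of 500 to 2000 UMIs held 560 Camk1d CPM in shCtrl and 297 in shSrsf10, above each pooled immune level of the same library. The log2 ratio was -1.70 (-1.78 to -1.63) in tumour cells and between -1.60 (neutrophils) and -2.16 (B cells) in the others.

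Peak1 (ENSMUSG00000074305, chromosome 9, 56201126 to 56418067, minus strand) encodes a pseudokinase scaffold of cytoskeletal signalling. It was at 368 CPM in shCtrl and 144 in shSrsf10 tumour cells, 259 and 105 in T cells, and 335 and 145 in neutrophils. In macrophages it was at 261 and 92.2 CPM and in B cells at 200.2 and 52.1. Its log2 ratio was -1.36 (-1.39 to -1.33) in tumour cells and lay between -1.21 (neutrophils) and -1.94 (B cells) elsewhere. One shCtrl barcode held 27.7% of the Peak1 UMIs of its T cells. Without the top barcode of each library the T cell ratio was -0.96 in place of -1.31.

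Both mitochondrial genes were measured in tumour cells, T cells and macrophages, and Tmem160 in B cells also. Glrx5 (ENSMUSG00000021102, chromosome 12, 105032688 to 105042906, plus strand) encodes a mitochondrial glutaredoxin of iron-sulfur cluster assembly. It was at 116 CPM in shCtrl and 42.2 in shSrsf10 tumour cells, 120 and 32.4 in T cells, and 102 and 26.8 in macrophages. Its level thus hardly differed between the 3 classes in shCtrl, 1.18 times from lowest to highest. The log2 ratios were -1.45 (-1.50 to -1.41), -1.89 (-2.15 to -1.62) and -1.93 (-2.78 to -1.17), and the T cell interval lies below the tumour ratio. Neutrophils held 8 and 2 UMIs and B cells 8 and 9.

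Tmem160 (ENSMUSG00000019158, chromosome 7, 16452779 to 16455494, plus strand) encodes a small protein of the mitochondrial inner membrane. It was at 108 CPM in shCtrl and 26.5 in shSrsf10 tumour cells, 168 and 37.7 in T cells, 176 and 45.3 in macrophages, and 164 and 43.5 in B cells. Its 4 log2 ratios span 0.239, the narrowest span of any member, from -2.15 (-2.38 to -1.92) in T cells to -1.91 (-3.01 to -0.84) in B cells. Neutrophils held 10 and 8 UMIs.

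The membrane protein genes include the members with the ratios farthest from 0 in tumour cells. Tmem238 (ENSMUSG00000030431, chromosome 7, 4784557 to 4789656, minus strand) was at 121 CPM in shCtrl and 17.9 in shSrsf10 tumour cells. In T cells it was at 54.1 and 10.1 CPM, and in macrophages at 36.8 and 3.35, the latter from 2 UMIs. The log2 ratio was -2.76 (-2.82 to -2.69) in tumour cells, -2.42 (-2.85 to -1.99) in T cells and -3.46 (-6.55 to -1.52) in macrophages. Neutrophils held 2 UMIs in shCtrl and 0 in shSrsf10, and B cells 3 and 2, so no ratio is given there. Without barcodes that held Krt8 or Krt18 the T cell ratio was -3.27, and the mean of CPM per barcode gave -5.56 in macrophages.

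Bri3 (ENSMUSG00000047843, chromosome 5, 144244437 to 144446757, plus strand) encodes a small membrane protein found in lysosomes. Tumour cells had 269 CPM in shCtrl and 57.0 in shSrsf10, T cells 143 and 29.3, and neutrophils 459 and 104. Macrophages had 290 and 78.8 CPM and B cells 255 and 23.2. Neutrophils therefore held the highest level in both libraries. The log2 ratio was -2.24 (-2.28 to -2.20) in tumour cells and between -1.88 and -2.28 in T cells, neutrophils and macrophages. In B cells it was -3.46 (-4.80 to -2.29), below the tumour ratio, from 28 and 8 UMIs. Without the immune barcodes that held any Krt8 or Krt18 UMI it was -2.57 in B cells, -3.07 in T cells and -2.73 in macrophages.

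Rab5if (ENSMUSG00000027637, chromosome 2, 156863128 to 156873563, plus strand) encodes a membrane protein that in human cells is part of the translocon for multipass proteins. Pooled over all depths, its tumour level was 369 CPM in shCtrl and 132 in shSrsf10, the highest of the 5 classes in both libraries. Tumour barcodes of 500 to 2000 UMIs held 142 CPM in shCtrl and 102 in shSrsf10, from 17 and 10 UMIs. T cells had 198 and 76.8 CPM, neutrophils 175 and 55.3, macrophages 187 and 82.2, and B cells 164 and 63.7. The log2 ratios ran from -1.18 (-1.66 to -0.73) in macrophages to -1.66 (-2.67 to -0.69) in neutrophils around the tumour value of -1.49 (-1.51 to -1.46). The 4 immune intervals all hold that value.

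Read over all members, in sums from which tumour RNA was not taken out, the size of the difference was close in the 5 classes, with a few exceptions below the tumour value. Of 33 measured pairs in immune classes, 27 had a counting interval that holds the tumour ratio of the same gene. The other 6 lay below it, and 0 lay above. They are Cdk8 in T cells, neutrophils and B cells, Taf10 and Glrx5 in T cells, and Bri3 in B cells. An interval that holds the tumour value does not show that both ratios are the same, since the neutrophil and B cell intervals are wide. The genes were also chosen for low ratios in several classes, which bears on these counts. The immune sums also hold tumour RNA, described next, and its part in this likeness was not tested. Without immune barcodes that held Krt8 or Krt18, 30 immune ratios were measured. Of these, 24 lay inside the interval of the main value and 6 outside it.

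**Figure D2:**
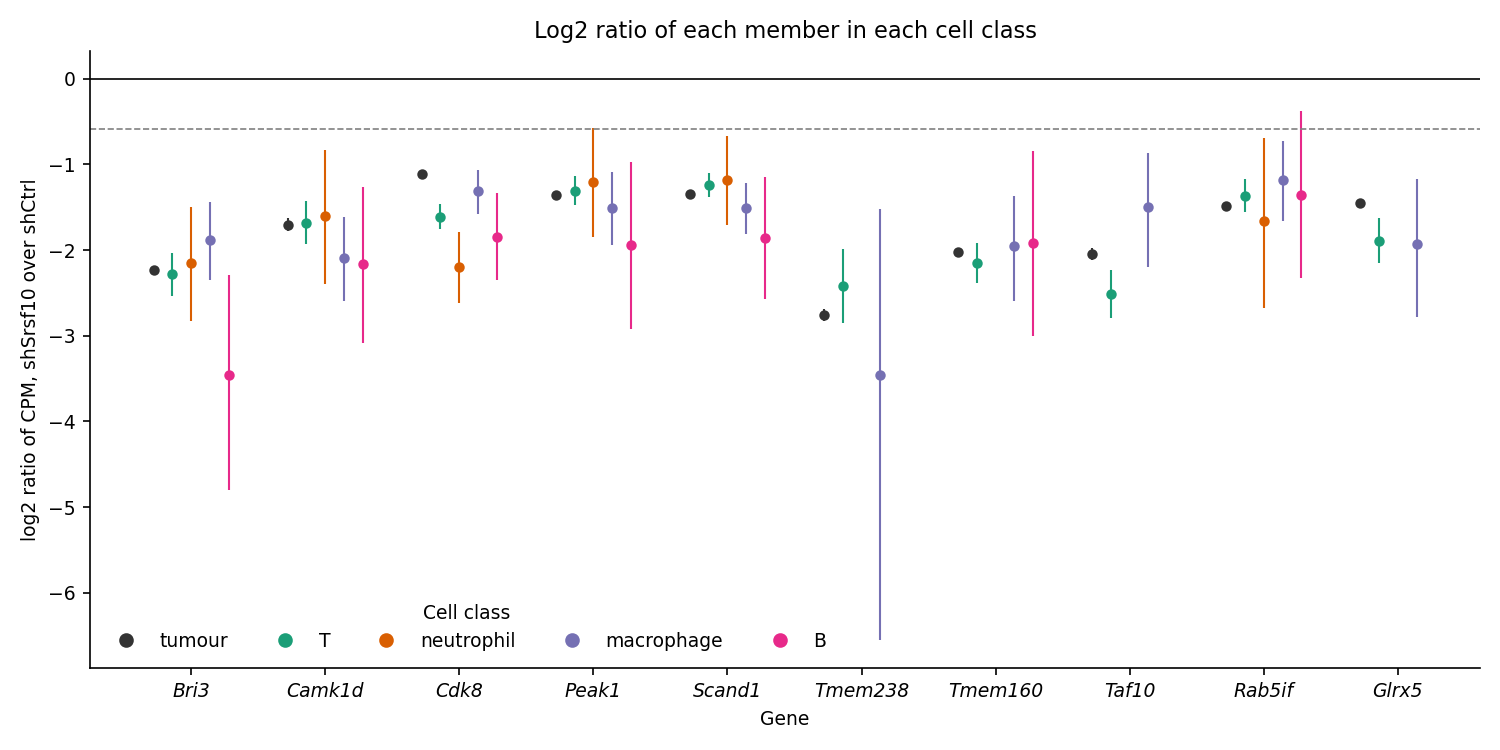
Log2 ratio of CPM, shSrsf10 over shCtrl, of each gene in each measured class, with exact 95% counting intervals; the solid line is 0 and the dashed line 1.5-fold lower. All 43 points and intervals lie below 0, and the tumour points (black) run from -1.11 for Cdk8 to -2.76 for Tmem238.

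Tumour RNA was present in the immune barcodes of both libraries, and its values stand beside these results. The summed Krt8 and Krt18 level in T cell barcodes was 34.5% of the tumour level in shCtrl and 34.2% in shSrsf10. It was 19.1% and 22.0% in macrophages, 14.4% and 7.46% in neutrophils, and 25.4% and 8.57% in B cells. When that share of the tumour level was taken from each immune level, 32 measured pairs still gave a ratio, from -3.35 to -0.42. Of those, 1 was no longer 1.5-fold lower, Rab5if in B cells at -0.42. For Tmem238 in macrophages the tumour share, 3.93 CPM, was above the shSrsf10 level itself, so no ratio could be had. In T cells it left 12.4 of 54.1 Tmem238 CPM in shCtrl and 3.98 of 10.1 in shSrsf10, a log2 ratio of -1.63. By contrast 320 of 372 Cdk8 CPM and 111 of 130 Camk1d CPM in shCtrl T cells were left. For Bri3 49.9 of 143 CPM were left there, for Rab5if 70.1 of 198, for Peak1 132 of 259 and for Scand1 198 of 371. In shSrsf10 T cells 9.79 of 29.3 Bri3 CPM and 31.7 of 76.8 Rab5if CPM were left, log2 ratios of -2.35 and -1.14. Most of the Bri3 and Rab5if RNA in T cells was thus estimated as tumour RNA.

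Depth and mitochondrial share differed between the libraries, and setting them equal divided the members. Equal numbers of barcodes were drawn from each bin of depth and mitochondrial share, which left 3211 tumour barcodes a library, 338 T, 91 neutrophil, 100 macrophage and 26 B cell barcodes. All 38 pairs with enough UMIs were at least 1.5-fold lower, 33 of them with an interval below 0 and 5 with one that holds it. The matched barcodes are part of those whose ratios chose the genes, so this count is no independent check. In tumour cells the ratios of Camk1d, Cdk8 and Peak1 were closer to 0 by 0.65, 0.48 and 0.50. Matched levels of Camk1d were 40.7 and 19.6 CPM, a log2 ratio of -1.05 (-1.14 to -0.97). For Cdk8 they were 121 and 78.5 CPM, a ratio of -0.63 (-0.68 to -0.58). For Peak1 they were 289 and 159 CPM, a ratio of -0.86 (-0.89 to -0.83). The other 7 genes differed from their unmatched tumour ratio by -0.14 to 0.02. Bri3 was at -2.22, Scand1 at -1.33, Tmem238 at -2.81, Tmem160 at -2.11, Taf10 at -2.15, Rab5if at -1.63 and Glrx5 at -1.57 after matching. In B cells 3 members kept enough UMIs, Cdk8 at -0.62 (-1.63 to 0.36), Peak1 at -0.73 (-2.21 to 0.65) and Scand1 at -1.31 (-2.82 to 0.03), where the unmatched values had been -1.84, -1.94 and -1.86. In T cells, neutrophils and macrophages the median member differed by -0.02, -0.02 and 0.09 from its unmatched ratio. Rab5if moved most in neutrophils, from -1.66 to -0.93 (-2.49 to 0.50), from 13 and 7 UMIs, an interval that holds 0. In T cells it moved from -1.36 to -1.72.

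After matching, the immune ratios that stood apart from the tumour ratio beyond counting error were all of Camk1d, Cdk8 and Peak1. Of the 17 measured immune pairs of the 7 genes, all 17 had an interval that holds the matched tumour ratio of the gene. These intervals are wider than the unmatched ones, since fewer barcodes are left. Taf10 in T cells was at -2.34 (-2.89 to -1.81), and its distance from the tumour ratio went from -0.47 to -0.18. Glrx5 in T cells was at -1.96 (-2.47 to -1.47), and its distance hardly moved, from -0.44 to -0.38, so the wider interval alone made it hold the tumour ratio. Of the 11 immune pairs of Camk1d, Cdk8 and Peak1, 6 lay below the matched tumour ratio, 5 held it and 0 lay above. The 6 were all 3 genes in T cells, Camk1d and Cdk8 in macrophages and Cdk8 in neutrophils. Camk1d was at -1.68 (-2.13 to -1.26) in matched T cells and -1.90 (-2.60 to -1.25) in matched macrophages, against -1.05 in tumour cells. Cdk8 was at -1.37 (-1.61 to -1.13) in matched T cells, -1.28 (-1.67 to -0.89) in macrophages and -2.10 (-2.82 to -1.43) in neutrophils, against -0.63. Peak1 in T cells was at -1.17 (-1.49 to -0.87), so its interval ends just short of the tumour value of -0.86 and overlaps the tumour interval.

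Within bins of tumour barcodes of like depth, Camk1d and Cdk8 stayed closer to 0 than their pooled ratios. The sets of 3 and 7 genes, here and above, were formed after these values were seen and carry no test. Over 6 bins of depth Camk1d ran from -1.33 to 0.33, with all 6 intervals above its pooled -1.70. Its value above 0 came from barcodes of 2000 to 4000 UMIs, with 307 UMIs in 212 shCtrl and 128 in 70 shSrsf10 barcodes, and the shallower bin of 500 to 2000 UMIs gave -0.92. Cdk8 ran from -0.89 to -0.57, each value closer to 0 than the pooled -1.11, and 4 of its 6 intervals lay above that. Peak1 ran from -1.80, in the shallowest bin, to -1.05, and 5 of 6 values were closer to 0 than the pooled -1.36.

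Of the 7 other genes, Rab5if and Taf10 differed most over depth beyond counting error. Rab5if had 2 of 6 intervals above its pooled ratio and 2 below, and Taf10 had 2 of 5 above and 1 below. All intervals of Scand1 and Glrx5 held the pooled ratio. Bri3, Tmem160 and Tmem238 each had 1 interval above it, and their others held it. Bri3 ran from -2.27 to -1.87 and Glrx5 from -1.56 to -1.19. Scand1 ran from -1.37 to -0.81 and Tmem160 from -2.20 to -1.56. Taf10 ran from -2.24 to -0.78, Rab5if from -1.60 to -0.47 and Tmem238 from -3.47 to -2.35. All 7 ranges are wider than that of Cdk8, with ends that partly rest on few UMIs. The Tmem238 value of -3.47 came from 67 and 2 UMIs, and the Scand1 value of -0.81 from 43 and 20. The Taf10 value closest to 0 came from 52 and 10 UMIs in barcodes of 2000 to 4000 UMIs, and that of Rab5if from 17 and 10 UMIs in barcodes of 500 to 2000. In the deepest bin, 32000 to 64000 UMIs, Taf10 was at -2.24 and Rab5if at -1.58. Of 39 measured values of the 7 genes in depth bins, 38 were at least 1.5-fold lower, all but that of Rab5if in the shallowest bin, and of 18 values of the 3 genes 16 were.

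Over 5 bins of mitochondrial share the ranges were narrower for each of the 10 genes. Scand1 ran from -1.38 to -1.34, Cdk8 from -0.95 to -0.78 and Peak1 from -1.22 to -0.83, and all 5 intervals of Cdk8 and of Peak1 lay above the pooled ratio. Camk1d was at -1.57, -1.78 and -1.61 in the 3 bins of lowest share, with intervals that hold its pooled ratio, and at -0.91 and -0.78 in the other 2. All 35 values of the 7 genes and 15 of the 3 genes were at least 1.5-fold lower.

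**Figure D3:**
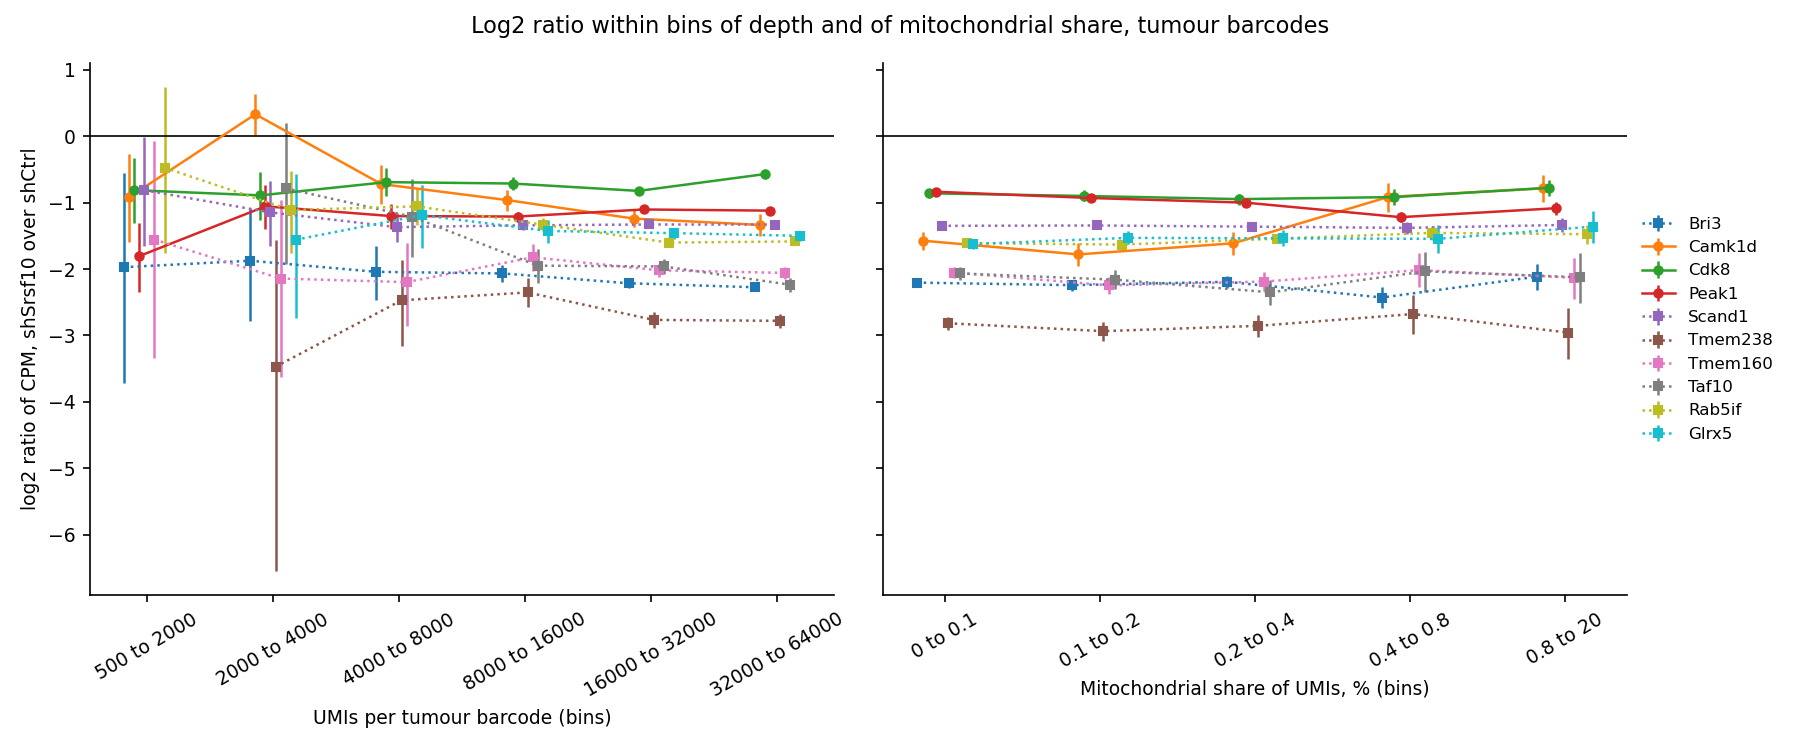
Log2 ratio of CPM, shSrsf10 over shCtrl, within bins of UMIs per tumour barcode (left) and of mitochondrial share (right), with exact 95% counting intervals; values under 20 UMIs are not drawn. Solid lines are Camk1d, Cdk8 and Peak1 and dotted lines the other 7 genes; Over depth Camk1d lies between -1.33 and 0.33, Cdk8 between -0.89 and -0.57 and Taf10 between -2.24 and -0.78, and over mitochondrial share Camk1d lies between -1.78 and -0.78 and Scand1 between -1.38 and -1.34.

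Inside a single library, where no knockdown comparison enters, Camk1d, Cdk8 and Peak1 varied with depth, Gm42418 and mitochondrial share more than the other 7 genes did. In shCtrl tumour barcodes Camk1d was at 182 CPM in the 25% with the fewest UMIs and 25.8 CPM in the 25% with the most. Cdk8 was at 344 and 95.6 CPM and Peak1 at 614 and 273. In shSrsf10 the same ends of the depth range gave 68.2 and 8.05 CPM for Camk1d, 160 and 50.4 for Cdk8, and 236 and 118 for Peak1. Thus the deepest barcodes held the least of these 3 RNAs per UMI in both libraries. Bri3 was at 263 and 267 CPM in shCtrl and 62.7 and 56.0 in shSrsf10. The log2 ratio of the deepest over the shallowest 25% lay between -2.82 for Camk1d and -1.17 for Peak1 in shCtrl, and was -3.08 for Camk1d in shSrsf10, where Peak1 was again the closest of the 3 to 0. Across the 7 genes the log2 ratio of the deepest over the shallowest 25% lay between -0.10 and 0.57 in shCtrl and between -0.42 and 0.17 in shSrsf10.

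Levels of the 3 genes also rose with Gm42418, a predicted gene whose row overlaps ribosomal RNA sequence. From the 25% of shCtrl tumour barcodes with the least Gm42418 to the 25% with the most, Camk1d went from 14.9 to 181 CPM, Cdk8 from 67.6 to 350.1 and Peak1 from 249 to 571. In shSrsf10 Camk1d went from 3.10 to 64.9 CPM, Cdk8 from 33.5 to 162 and Peak1 from 91.6 to 258. The 7 other genes moved between -0.50 and 0.21 on the log2 scale in shCtrl and between -0.04 and 0.57 in shSrsf10. Barcodes of the Gm42418-rich 25% were shallower, with a median of 10040.5 against 25859 UMIs in shCtrl. Their overlap with the shallowest 25%, which had a median of 7299.5 UMIs in shCtrl, was not counted. Gm42418 itself was lower in shSrsf10, at 6810 and 4842 CPM in tumour cells and 15096 and 8139 in T cells. Between the 25% of barcodes with the lowest and the highest mitochondrial share the 3 genes were higher in the latter by 1.12 to 1.62 in shCtrl and 0.91 to 1.76 in shSrsf10, and the 7 lay between -0.49 and -0.01 and between -0.61 and 0.01. Those barcodes also differed in depth, with a median of 22770.5 and 10866 UMIs in shCtrl and 34152 and 17633 in shSrsf10. A split by MHC class II RNA used equal numbers of barcodes of like median depth, 18686 and 18838 UMIs in shCtrl and 17279 and 17265.5 in shSrsf10. It moved the 3 genes by -0.32 to -0.01 in shCtrl and -0.55 to -0.14 in shSrsf10. The 7 moved by -0.05 to 0.10 and -0.08 to 0.40. The sizes cannot be set against those of the other splits, which were not matched for depth. The part that depth, mitochondrial share and Gm42418 have in the class ratios of the 3 genes was not tested beyond the matching above.

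**Figure D4:**
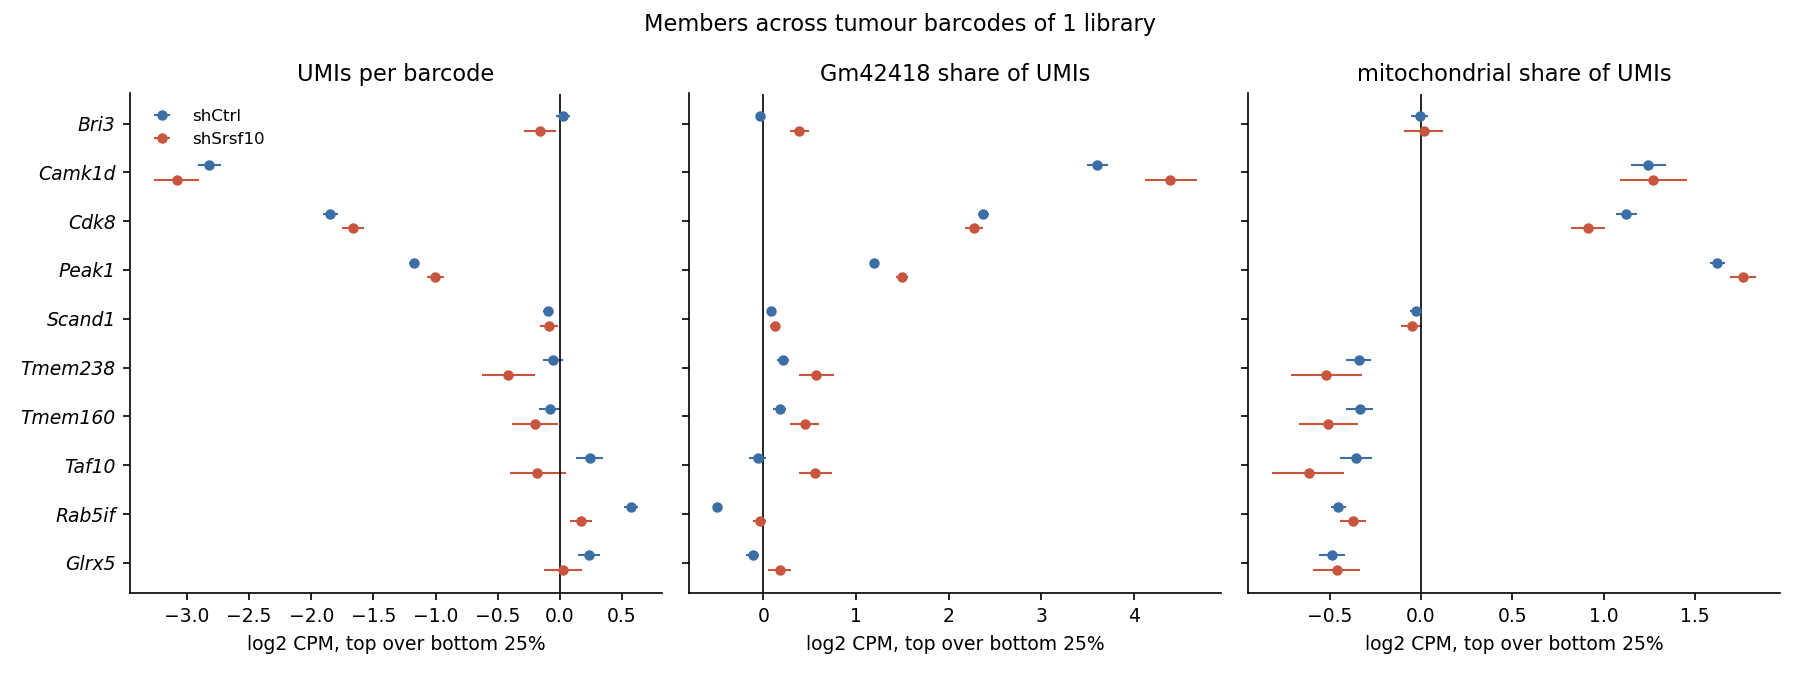
Log2 ratio of CPM between the top and the bottom 25% of tumour barcodes of 1 library, split by UMIs per barcode, by the Gm42418 share and by the mitochondrial share, with exact 95% counting intervals (shCtrl blue, shSrsf10 red). Camk1d, Cdk8 and Peak1 lie away from 0 in each panel and in both libraries, Camk1d by -2.82 and -3.08 over depth, and the other 7 genes lie between -0.61 and 0.57.

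For the 7 genes the difference was spread over the tumour cells and not carried by a few. With each tumour barcode thinned to 10000 UMIs, 5317 shCtrl and 3433 shSrsf10 barcodes could be used, and 1523 and 397 were too shallow. Bri3 was detected in 91.6% of shCtrl barcodes (90.9 to 92.4, exact binomial) and 43.9% of shSrsf10 barcodes (42.2 to 45.6). Its median went from 2 UMIs to 0. Tmem238 was detected in 66.3% and 15.8%, Tmem160 in 60.9% and 22.7%, and Taf10 in 51.2% and 16.1%. Rab5if was detected in 94.0% and 70.9%, and Glrx5 in 65.3% and 33.3%. Scand1 was detected in 99.0% and 85.5%, with a median of 5 and 2 UMIs and a highest count of 16 and 11. The unthinned shares for Bri3 were 98.3% and 76.4%. Peak1 was more uneven, with a median of 2 UMIs in shCtrl against a highest count of 72.

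Most of the 10 genes have short, GC-rich coding sequences, and Camk1d, Cdk8 and Peak1 do not. Of the measured tumour genes, 12935 (87.1%) could be joined to a GENCODE transcript. The first 90 coding bases of the 7 genes Bri3, Scand1, Tmem238, Tmem160, Taf10, Rab5if and Glrx5 are at or above 72.2% G and C, the bound of the top 10% of those genes, whose median is 57.8%. Camk1d, Cdk8 and Peak1 are below that median. Coding sequences of the 7 genes are 375 to 654 bases long, all below the median of 1377, and those of Camk1d, Cdk8 and Peak1 are 1155, 1392 and 5205. Over the whole coding sequence Bri3, Scand1, Tmem238, Tmem160, Taf10 and Glrx5 are in the top 10% for GC, from 64.0% to 75.6%, Rab5if is at 53.2%, and Camk1d, Cdk8 and Peak1 lie between 46.2% and 50.9%, below the median of 53.0%. The first 300 transcript bases are above the median of 60.3% in 9 of 10, all but Peak1 at 49.7%, and Cdk8 has the same value there as Bri3, 79.7%. Transcript length including untranslated parts is above the median of 2871 bases in 5 of 10.

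Across all genes, GC in the first 300 bases went with lower ratios in tumour cells, T cells and macrophages. In B cells both ends of the GC range were lower than the bins between, the GC-rich end most. The difference in neutrophils was small. In tumour cells the 10% of genes with the GC-richest first 300 bases, from 73.0% to 88.3%, had a median log2 ratio of -0.45, and 32.8% of them were at least 1.5-fold lower. In the 10% with the least GC the median was -0.04 and 11.7% were lower. Without the members the top 10% had a median of -0.44. In T cells the top 10% had a median of -0.56 and 47.0% lower, against -0.09 and 22.3% in the bottom 10%. In macrophages it was -0.50 and 44.2%, against -0.08 and 26.2%. In neutrophils it was 0.06 and 24.7%, against 0.22 and 18.1%, and in B cells -0.58 and 50.0%, against -0.43 and 41.8%. The B cell bins between these ends had medians from -0.33 to -0.12.

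Spearman's rho of that GC content with the log2 ratio was -0.21 over tumour genes, -0.18 in T cells, -0.16 in macrophages, -0.07 in neutrophils and -0.02 in B cells. For the first 90 coding bases it was only -0.06 in tumour cells and 0.08 in B cells, but rho hardly shows a shift at one end. In tumour cells the 10% of genes with the GC-richest coding starts had a median of -0.30, with or without the members, and 24.1% were lower. The next 10% had -0.07 and 13.6%. In T cells the top 10% had -0.34 and 34.1%, against -0.09 and 21.5% in the next 10%. In macrophages it was -0.28 and 32.1%, against -0.13 and 23.5%. In B cells the top 10% had -0.18 and 37.1%, and the bottom 10% were lower still, at -0.48 and 45.4%. Over tumour genes rho was -0.35 for transcript length and -0.30 for coding length (n = 12935 genes, which share 2 libraries and are not independent), so longer coding sequences went with lower ratios, whereas 8 of the 10 members are shorter than the median. The labels disagree on whether the kit reads the 5′ or the 3′ end of a transcript, so whether the first 300 bases are the part that was read is not known. The members were chosen for low ratios, and their place below the median of genes of like GC follows from that choice.

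**Figure D5:**
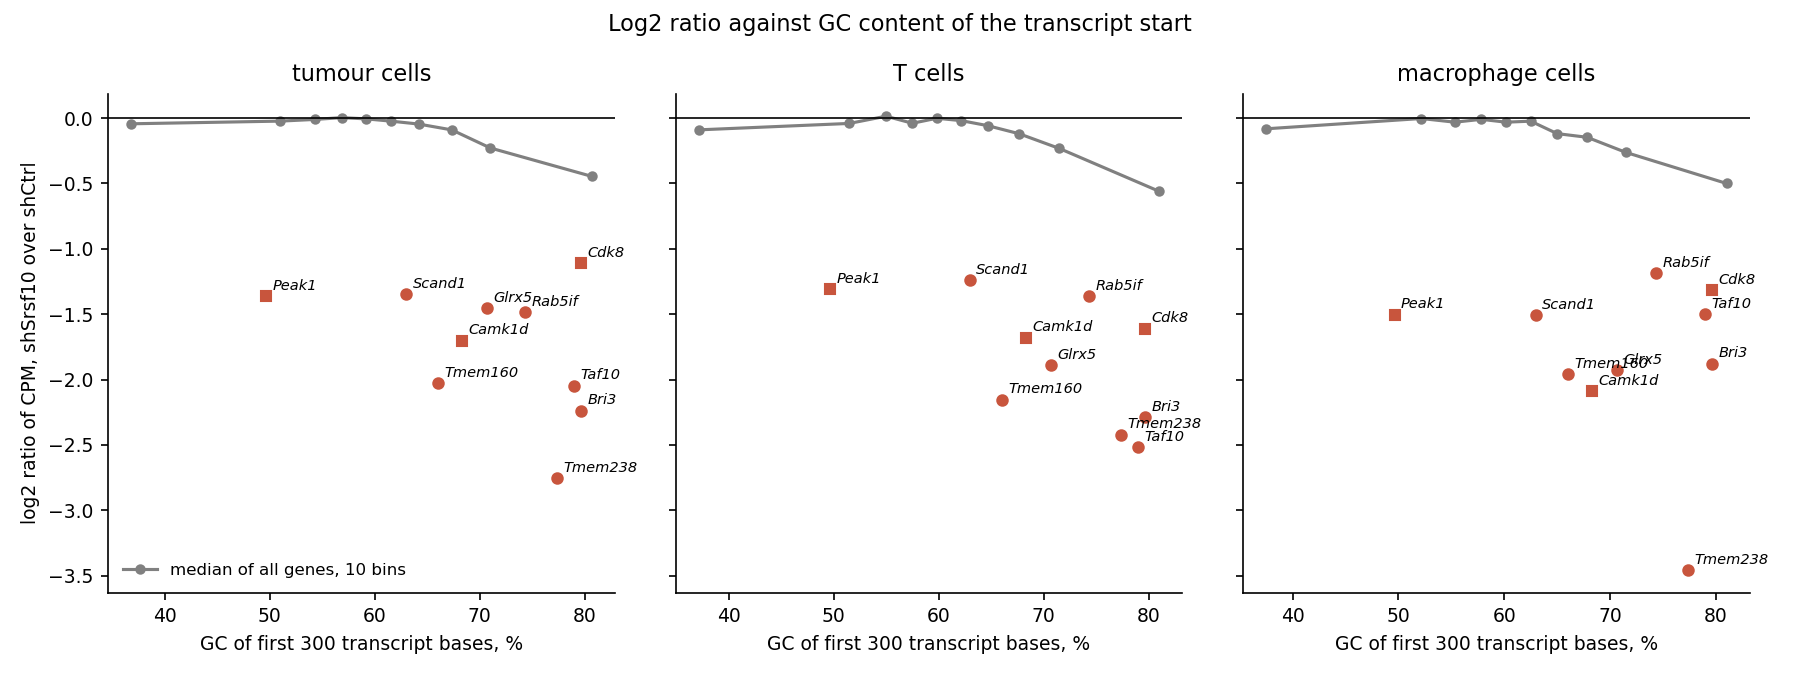
Log2 ratio of CPM against the GC content of the first 300 transcript bases in tumour cells, T cells and macrophages; the grey line joins the median of all measured genes in each of 10 bins of GC content, drawn at the middle of its range. In tumour cells the line goes from -0.04 to -0.45; the 10 members (red, squares for Camk1d, Cdk8 and Peak1) were chosen for low ratios, so the plot shows where they lie on the GC axis, Peak1 at 49.7% and Bri3 and Cdk8 at 79.7%.

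Promoters were read from RefSeq windows on GRCm38.p6, which reach from 250 bases before to 50 bases after a start, and 12 windows matched the 10 genes. GGGCGG, the GC box bound by Sp factors, or its reverse CCGCCC, was present in the 250 bases before the start in 9 of 12 windows and 8 of the 10 genes, where 32.7% of 32851 windows hold it. CCAAT or ATTGG was in 3 windows, against 33.8%, and TATAAA or TTTATA in 0, against 12.4%. A match describes letters and is not a binding site. The background is all windows, whether or not the gene was measured here. Of the 12 member windows, 10 are above the median GC of all windows, 52.4%. The share of windows of like GC that hold a GC box was not counted, so nothing is read from the difference. The 120 bases before the start are shown for Bri3, with the most GC boxes, and for Scand1, each with the GC boxes in capitals. They lie at chr5:144255105-144255224 (plus strand, at the downstream of 2 Bri3 starts) and chr2:156312705-156312824 (minus strand).
Bri3: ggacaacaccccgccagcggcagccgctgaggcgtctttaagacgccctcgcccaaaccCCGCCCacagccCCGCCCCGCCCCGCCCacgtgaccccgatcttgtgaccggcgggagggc
Scand1: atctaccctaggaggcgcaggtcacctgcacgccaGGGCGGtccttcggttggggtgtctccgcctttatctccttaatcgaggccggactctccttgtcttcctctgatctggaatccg
The nearest neighbours of the members were mostly between the 1.5-fold limits. Of 20 measured genes next to a member on either side, 0 were at least 1.5-fold lower in tumour cells and 2 higher, with a median of -0.13. The 2 were Tmem130, near Bri3, at 0.84 (0.47 to 1.21) and D430019H16Rik, near Glrx5, with 2 and 24 UMIs. Rpl28, 3218 bases from Tmem238, was at 7056 and 7139 CPM, and Tpp1, 450 bases from Taf10, at 32.0 and 31.6. Of 5 genes that overlap a member, Sla2 was lower at -0.87 (-1.45 to -0.31). Ilk, which overlaps Taf10 on the other strand, was at 0.23 (0.18 to 0.28).

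Genes listed with the members by complex, family or process were mostly between the 1.5-fold limits in tumour cells. There 13.3% of all measured genes were lower, and the counts of lower genes in the lists are near or below that share or rest on few genes. Of 28 measured genes of TFIID and SAGA other than Taf10, 4 were lower, Taf1, Taf3, Taf4 and Taf5, and 0 higher, with a median of -0.10. Taf5 was the farthest from 0, at 3.59 and 1.71 CPM and a log2 ratio of -1.07 (-1.31 to -0.82). Of 31 Mediator genes, 3 were lower, Med13, Med13l and Med14, and 0 higher, with a median of 0.03, and Med13, which joins the kinase module to Mediator, was at -0.73 (-0.88 to -0.59). Of 13 genes of the RAB5 cycle and the multipass translocon, 2 were lower, Rab5a at -1.10 (-1.23 to -0.98) and Rabep1 at -0.87 (-0.96 to -0.78). Of 9 calmodulin kinase genes 2 were lower, Camk2d at -0.88 (-0.93 to -0.83) and Camkk1 at -0.61 (-1.34 to 0.10). Of 24 iron-sulfur assembly genes, 0 were lower and 1 higher, the cytosolic glutaredoxin Glrx at 9.26 and 16.8 CPM, a log2 ratio of 0.86 (0.76 to 0.97), and of 12 partners of Peak1 in signalling 0 were lower. The medians of these lists ran from -0.26 for the Peak1 partners to 0.12 for iron-sulfur assembly, against -0.07 over all genes.

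The counts of lower genes in the immune classes varied by list. In T cells, where 21.8% of all genes were lower, 6 of 28 TFIID and SAGA genes, 5 of 31 Mediator genes, 3 of 13 RAB5 and translocon genes, 4 of 12 Peak1 partners and 0 of 24 iron-sulfur genes were lower. In macrophages, against 24.5% of all genes, the counts were 1 of 14, 4 of 23, 3 of 11, 3 of 9 and 1 of 21 in the same order. In B cells 8 of 12 measured iron-sulfur genes were lower, with a median of -0.60, against 33.9% and -0.26 over all genes. Neutrophils held 2 to 6 measured genes of each list, too few to describe.

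Few genes had the pattern of the members in all 5 classes. Of 1290 genes measured in each class, 28 (2.17%) were at least 1.5-fold lower in all 5, and 0.853% were higher in all 5. The 28 lower genes were 6 members, 8 genes of the mitochondrial genome and 14 others. At 2-fold, 13 (1.01%) were, and the 7 that are no members were 6 mitochondrial genes and Ttr, the plasma thyroid hormone carrier made by hepatocytes. Likeness was ranked, leaving out mitochondrial and ribosomal protein genes, by the log2 ratio closest to 0 over the 5 classes. That value was -1.88 for Bri3 and -1.11 for Cdk8. Apart from the 6 members, the leading genes were Ttr at -1.44, Anp32b at -0.97, Cmss1 at -0.94 and Eif3f at -0.86. The Ttr level in T cells, 748 CPM in shCtrl and 276 in shSrsf10, was below the tumour share estimated from keratin RNA, 916 and 289 CPM, so its T cell ratio cannot be told apart from that of tumour RNA. For Cmss1 that share was 65.3 of 615 CPM and 33.7 of 236. The 8 mitochondrial genes were lower in each class, with medians from -1.07 in tumour cells to -2.57 in macrophages. Of 4 rows with ribosomal RNA-like sequence, Gm42418 included, the median ran from -0.53 in tumour cells to -1.02 in B cells. Of 3 measured RNAs kept in the nucleus 2 were lower in tumour cells, Kcnq1ot1 at -0.72 (-0.78 to -0.67) and Neat1 at -0.63 (-0.69 to -0.56). Of 15 genes of the dissociation response 3 were lower in tumour cells, Jund, Hspa1a and Hspa1b, and 3 higher, Fos, Ier2 and Zfp36. Hspa1b was the farthest from 0 at -2.78 (-5.15 to -1.06), from 0.180 and 0.0262 CPM, and Fos was at 0.67. Jund was lower in all 5 classes, at -0.90 (-0.93 to -0.86) in tumour cells.

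Barcodes outside the 5 classes held the members too. In 1595 shCtrl and 1021 shSrsf10 barcodes that met no class rule, all 10 members were at least 1.5-fold lower, where 37% of measured genes were, with a median log2 ratio of -2.01 and a range of -2.70 to -1.17. Of the 1595 and 1021 barcodes, 1065 and 640 held Krt8 or Krt18 UMIs, and 79 and 91 held at least 5. Tumour RNA was thus present in them too, and its part was not tested. The barcodes of no class included 25 and 15 endothelial barcodes, in which 5 members were measured and 5 were lower, against 23.6% of genes. They ran from -2.71 for Cdk8 to -0.69 for Rab5if, whose interval of -1.87 to 0.55 holds 0. Natural killer barcodes numbered 5 and 13, too few to measure any member.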

How the data were processed

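Each deposited matrix gives raw UMI counts of genes by barcodes, and per the submitters' processing notes the authors used Cell Ranger 6.1.0 with genome build mm10. The lowest total was 500 UMIs. The depth was 143327661 UMIs over 9920 barcodes in shCtrl and 136419902 over 7553 in shSrsf10. Barcodes under 200 genes, under 500 UMIs or over 20% mitochondrial UMIs were dropped, which left 9542 and 7486, and doublets were not removed in the main values. UMIs were summed per library and class. Levels (CPM) carry exact Poisson intervals and their ratios exact conditional binomial intervals, both at 95% and for counting error only, since PCR copies, cells and animals add spread that is not in them. The interval code was tested on simulated counts. Where 1 symbol stood for several IDs (38 symbols), the ID with more UMIs was used. Matching drew equal numbers of barcodes per library from bins of 0.5 log2 units of depth and of mitochondrial share (seed 1).

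Gene positions, transcripts and coding sequences came from GENCODE vM21 and promoters from RefSeq. The members, classes and gene lists were chosen with earlier results of these data known. Genes named besides the members and Srsf10 were, per list, up to 2 with at least 50 UMIs and the log2 ratio farthest from 0 in tumour cells, the 10 genes lowest and the 5 highest in the class closest to 0, and the nearest measured neighbours. Further list genes past 1.5-fold were named after their values were seen. Alternatives changed the barcode filter, the class overlap, doublets (Scrublet scores in scanpy 1.11.5), the scaling, the depth and the subtraction of tumour RNA. Computations used Python 3.11.15, numpy 2.4.6, scipy 1.17.1 and pandas 2.3.3.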

Additional observations from a re-analysis of the deposited data

How the results depend on the processing

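No paired analysis was possible because each group has 1 library and the shared replicate number 1 joins nothing. Under 11 alternatives, 430 recomputed log2 ratios of the members were all below 0, 369 of them inside the counting interval of the main value and 61 outside it, and 1 was not 1.5-fold lower, Rab5if in B cells at -0.42 after tumour RNA was subtracted. A change of over 1.5 times was seen in 26, of which 12 were in B cells, 8 in macrophages, 3 in T cells, 2 in neutrophils and 1 in tumour cells, Camk1d after matching. Fewer members could be counted where fewer UMIs were left. With matched depth and mitochondrial share 3 members were lower in B cells (3 measured) and 3 in all 5 classes, in place of 7 and 6. With each barcode thinned to 1000 UMIs 1 was in neutrophils, 1 in B cells and 1 in all 5 classes, each time of 1 measured. In these settings each member that was measured was also lower. Leaving out the barcode with most UMIs of a gene, an alternative chosen after seeing the data, changed no count by over 1.5 times. The scaling by the median gene moved B cell ratios by 0.50 and macrophage ratios by -0.14 and left all 43 at least 1.5-fold lower, the closest to 0 at -0.86.

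The count of all genes at least 1.5-fold lower depends on the minimum of UMIs. With no minimum it was 4568 in tumour, 4260 in T, 4113 in neutrophil, 5188 in macrophage and 5079 in B cells, in place of 1982, 2419, 420, 1621 and 677. With at least 100 UMIs it was 1215 in T, 80 in neutrophil, 266 in macrophage and 116 in B cells. Depth limits the B cell and neutrophil values most, with 78 and 75 and with 148 and 290 barcodes. Scrublet's own threshold called 0 shCtrl and 200 shSrsf10 barcodes, so the 728 and 448 barcodes with the top scores were left out instead.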

Other observations

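Some genes were higher in shSrsf10 in all 5 classes. Of the 1290 genes measured in each, 11 (0.853%) were at least 1.5-fold higher in each. By the class closest to 0, the 5 that led were Zbp1, a sensor of Z-form nucleic acids, at 1.34, Ly6c2 at 1.25, Ly6a at 1.08, the guanylate binding protein Gbp2 at 0.88 and the cytokine Il1b at 0.87. In tumour cells these were 1.78, 2.71, 3.19, 3.07 and 1.29. Ly6c2 was at only 0.34 CPM in shCtrl and 2.21 in shSrsf10 tumour cells, against 84.7 and 852 in T cells. Il1b was at 1.48 and 3.60 CPM in tumour cells, against 3751 and 8186 in neutrophils. Tumour levels of Zbp1 were 17.1 and 58.9 CPM, of Ly6a 42.7 and 390, and of Gbp2 4.08 and 34.3. The part of immune RNA in the tumour barcodes was not tested. Il1b had 0 UMIs in shCtrl and 21 in shSrsf10 B cells, so its B cell ratio has no finite value.

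Tumour barcodes with MHC class II RNA were 2652 in shCtrl and 3423 in shSrsf10, and those without it 4188 and 407. Among barcodes without it the log2 ratio was -0.71 for Camk1d, -0.59 for Cdk8 and -0.76 for Peak1, and among those with it -1.61, -0.99 and -1.14. Bri3 was at -2.22 and -2.21 in the same split, and Scand1 at -1.38 and -1.34. These groups were not matched for depth between the libraries, and Camk1d, Cdk8 and Peak1 varied with depth inside each library. Median depth of all tumour barcodes was 17334.5 UMIs in shCtrl and 26392 in shSrsf10. With depth and mitochondrial share matched, the 3 tumour ratios were -1.05, -0.63 and -0.86. The part of depth in this split was not tested.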
